A study of Mus musculus with 74 samples.

Results

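YFP-positive neurons of the fourth lumbar (L4) dorsal root ganglion (DRG) were analysed 3 days after injury of the sciatic nerve (SNI). They were compared with cells sorted in the same way from naive mice. The members were chosen by their labels alone, as every sorted library titled SNI 3d and every sorted library titled control, which gave 12 libraries of 4 SNI 3d mice and 18 libraries of 6 naive mice among the 74 libraries of the series. Letters a, b and c in the labels mark wells of one mouse, so the counts of a mouse were summed and the mouse was the replicate. All mice were females of the strain Thy1YFP16, aged 10-20 weeks, and the genotype field holds the same name with a number that counts up from library to library. SNI 3d mice were taken 3 days after a crush of the right sciatic nerve at midthigh with fine forceps. Naive mice had no injury, and 3 of them carry day 1 and 3 carry day 3 in their label. For comparison, 4 SNI 1d mice (the same crush, 1 day) and 4 SCI 3d mice (a dorsal hemisection of the thoracic spinal cord, 3 days) were fitted beside them. In this line the Thy1 promoter drives YFP, so the sort was set on cells in which this promoter is active, at about 100 cells per well. Libraries come in an earlier set (SNI 3d replicates 1 and 2, naive replicates 1 to 4) and in a later set labelled FACS2018 (SNI 3d replicates 3 and 4, naive replicates 5 and 6).

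Large-diameter DRG neurons send 1 axon branch to muscle and skin and another branch up the dorsal columns of the spinal cord. A crush of the sciatic nerve cuts the peripheral branch, after which these neurons are known to switch on transcription factors such as Atf3, Sox11 and Smad1, growth-associated and cytoskeletal genes, and secreted peptides. Genes for neurotransmission and ion conduction are known to fall in injured sensory neurons over the same days.

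The wells differed in what they held. Between 43070113 and 66829030 reads per SNI 3d mouse and between 47699504 and 74653760 reads per naive mouse were counted on genes. A well was called glia-rich when its reads on 10 genes of myelinating and satellite glia exceeded those on 10 genes of neurons, and 4 of 12 SNI 3d wells and 6 of 18 naive wells were glia-rich. These wells had between 4.45% and 15.7% of their reads on the glial genes after SNI and between 7.54% and 12.4% in naive mice. All 3 wells of SNI 3d replicate 3 were glia-rich, and naive replicates 5 and 6 kept 1 neuronal well each. Every comparison was therefore made over all wells (4 against 6 mice) and over the neuronal wells alone (8 wells of 3 SNI 3d mice against 12 wells of 6 naive mice). In bulk samples such as these, fewer cells of a type and less RNA per cell cannot be told apart.

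In 2 neuronal wells, found after their values were seen, injury genes stood against the label. Well c of naive replicate 4 had 751 CPM (counts per 1000000 reads of the library) of Atf3, where the other 11 neuronal naive wells had between 22.9 and 200 CPM. In the same well Sox11 was at 888 CPM against 8.72 to 107 CPM in the other 11, and Sprr1a at 48.1 CPM against 0 to 1.12 CPM. Well c of SNI 3d replicate 2 had 53.8 CPM of Atf3, where the other 7 neuronal SNI 3d wells had between 166 and 1191 CPM. Its Sox11 was at 74.0 CPM against 133 to 1819 CPM in the other 7, and its Sprr1a at 12.1 CPM against 36.4 to 820 CPM. Both wells were kept in the values below, so the naive maximum of many injury genes belongs to naive replicate 4. Without the 2 wells, which were picked by these genes and therefore support nothing, 338 genes passed the test over all wells and 2590 over neuronal wells.

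Over all wells, 166 of 23507 genes tested differed between SNI 3d and naive mice at an adjusted p under 0.1 in edgeR's quasi-likelihood test with Benjamini-Hochberg adjustment (called edgeR adjusted p from here on), which is 0.706% of the genes, and 123 of them were higher after SNI and 43 lower. Over neuronal wells, 1712 of 22620 genes passed (7.57%), of which 1442 (6.37%) were higher and 270 (1.19%) lower. Both sets of calls shared 115 genes, which is 69.3% of the first and 6.72% of the second, and all 115 had the same direction. Within the earlier set alone (2 against 4 mice) 1616 of the 1712 neuronal differences kept their direction, within the later set (1 against 2 mice) 1528 did, and 1440 did in both. The 1712 genes were called on these same mice, and both fits use the neuronal wells. Neither agreement in direction is therefore an independent check. The mice of both groups did not overlap in 51 of the 166 and in 664 of the 1712 genes. Over all genes tested, SNI 3d mice lay above every naive mouse in 0.961% (all wells) and 3.75% (neuronal wells) and below every naive mouse in 0.311% and 1.22%. These p-values weigh a difference against the spread between mice within groups, pooled over all sorted groups. It is the spread that remains after the 2 fitted factors described next took part of it out.

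The calls leaned on the model. The fit held 2 factors of unwanted variation (RUVr), of which the first followed naive replicate 5 and the second naive replicate 6 in neuronal wells, and these factors moved the median log2 fold change of all genes from -0.04 to 0.39. Without them edgeR called 0 genes over all wells, with 2970 at an unadjusted p under 0.05, and 14 over neuronal wells. When naive replicates 5 and 6 were left out together with the factors, 1 and 76 genes passed. With mice blocked by set and replicate number, 5 genes passed over all wells, among them Rhoq, Resp18, Tnik and Tubb6 from the 166. Leaving out SNI 3d replicate 1 left 24 calls over all wells and 89 over neuronal wells, and leaving out SNI 3d replicate 4 left 9 and 517. In DESeq2, 2249 and 2723 genes passed, with 44.8% and 68.7% of them higher against 74.1% and 84.2% in edgeR. With each neuronal well as a library and the mouse as a random effect, 667 genes passed (2.95%), and 510 of these were among the 1712.

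Of 22 transcription factors of the injury response tested in neuronal wells, 8 rose, 0 fell and 14 did not pass (36.4% called against 7.57% of all genes), and their median log2 fold change was 0.83 against 0.39 for all genes. The SNI 3d mice lay above every naive mouse for 5 of the 8, while 664 of all 1712 calls had no overlap in either direction. Of all genes tested, called or not, 3.75% lay above every naive mouse. Over all wells 2 of the 22 rose, Atf3 and Sox11. Without SNI 3d replicate 1 the neuronal count was 2, and without RUVr factors it was 0.

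Atf3 (ENSMUSG00000026628.13, chromosome 1, 191170296 to 191218039, GRCm38), a factor of the ATF/CREB family that is induced by axon injury, was measured at 1123, 469 and 524 CPM in the neuronal wells of SNI 3d replicates 1, 2 and 4. In naive mice its level ran from 27.2 to 239 CPM, with a median of 66 CPM. All 3 injured mice lay above all 6 naive mice, and the glia-rich SNI 3d replicate 3 also had 512 CPM. The fitted log2 fold change, which accounts for the RUVr factors, was 2.94 ± 0.73 (SE, edgeR adjusted p = 0.043) in neuronal wells and 3.09 ± 0.64 (SE, edgeR adjusted p = 0.077) over all wells.

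Sox11 (ENSMUSG00000063632.6, chromosome 12, 27334264 to 27342574), an SRY-box factor of developing and regrowing neurons, was at 1271, 709 and 625 CPM in the same 3 mice. Among the 6 naive mice the lowest was at 11.7 CPM, the median at 66.8 CPM and the highest at 285 CPM. No injured mouse overlapped a naive one in these wells, and the log2 fold change was 3.34 ± 0.55 (SE, edgeR adjusted p = 0.0093), and this call held with each of the 9 mice left out in turn. In the glia-rich replicate 3 the level was 258 CPM, just under the highest naive mouse over all wells at 269 CPM.

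Smad1 (ENSMUSG00000031681.16, chromosome 8), which carries BMP signals to the nucleus, was at 90.7, 89.1 and 119.5 CPM after SNI. The 6 naive mice had between 18.9 and 65.6 CPM, with a median of 28.9 CPM. These groups did not overlap either, at a log2 fold change of 1.66 ± 0.30 (SE, edgeR adjusted p = 0.013), and the call held with each of the 9 mice left out. Over all wells SNI 3d replicate 3 fell among the naive mice, at 18.3 CPM, and the gene did not pass (edgeR adjusted p = 0.13).

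Nfil3, a leucine zipper repressor, was at 46.8, 22.9 and 20.4 CPM after SNI. In naive mice its level ran from 0.11 to 17.7 CPM, with a median of 2.48 CPM. Its injured mice lay above all naive mice, with a log2 fold change of 3.71 ± 0.79 (SE, edgeR adjusted p = 0.024). Klf6, a zinc finger factor, was at 343, 157 and 260.5 CPM, above naive replicates 1 to 4 (52.3 to 78.7 CPM), but naive replicate 5 reached 709 CPM and replicate 6 had 236 CPM. Its log2 fold change was 1.35 ± 0.27 (SE, edgeR adjusted p = 0.017), with a difference of 1.82 on the log2(CPM + 1) scale within the earlier set and -0.65 within the later set. Named after their values were seen, the remaining 3 calls were Creb1, Hif1a and Rela, with log2 fold changes of 1.83, 1.17 and 1.67. Jun, the partner of Atf3 in many AP-1 complexes, had 173, 139 and 108 CPM in SNI 3d mice, against 60.5 to 227 CPM (median 76.1) in naive mice, and did not pass (log2 fold change 0.69 ± 0.30, SE, edgeR adjusted p = 0.18).

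**Figure D1:**
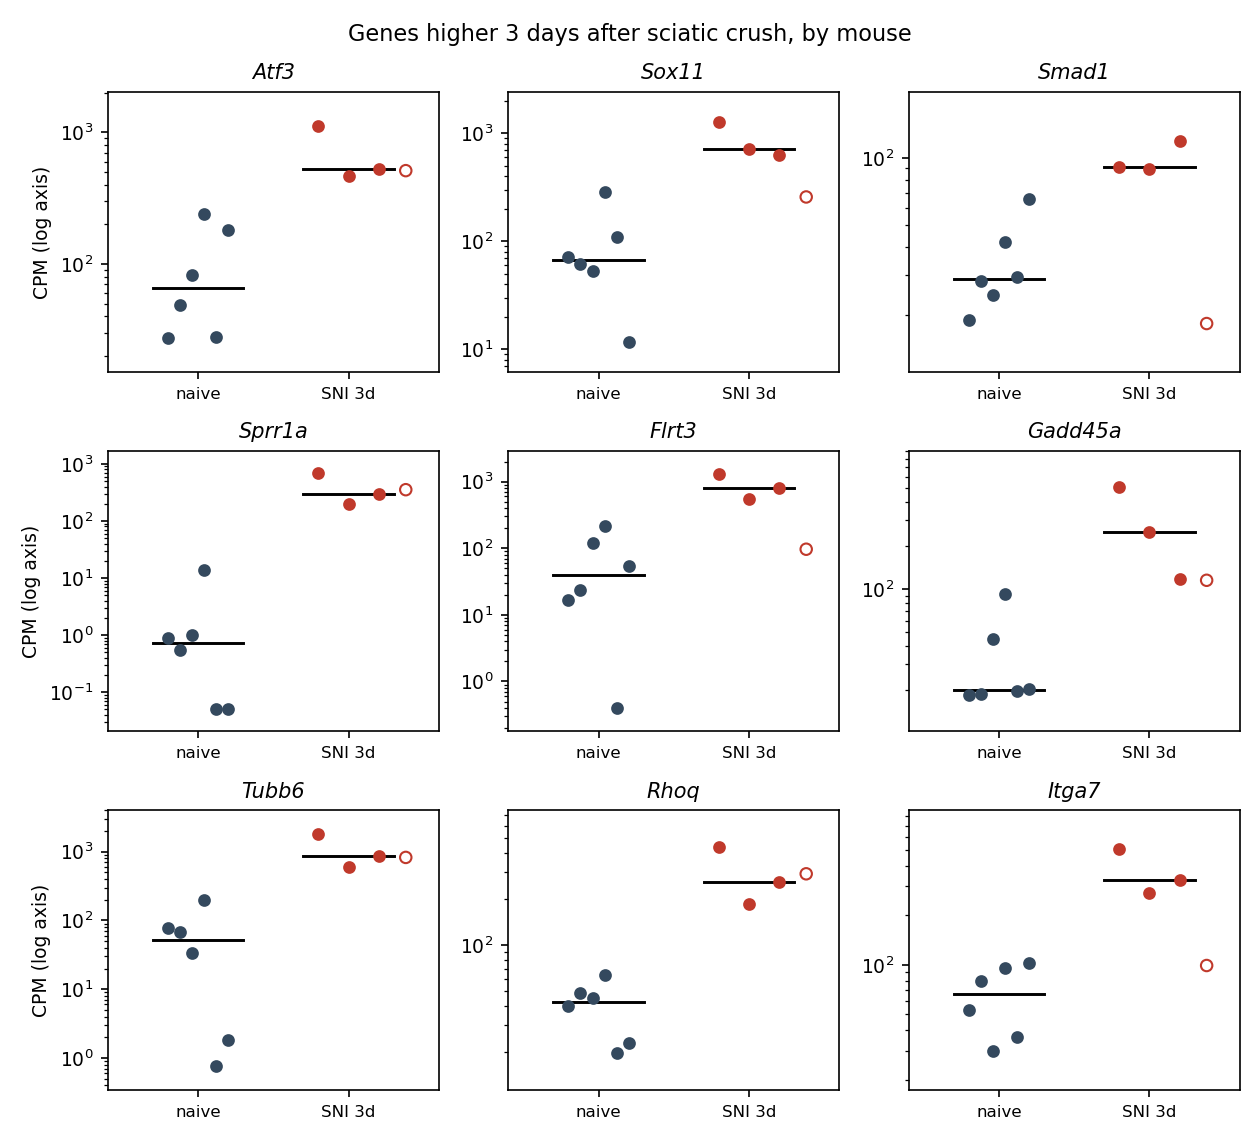
Levels of 9 genes in neuronal wells (CPM, log axis, values under 0.05 drawn at 0.05), 1 filled point per mouse with the median as a bar, and an open circle for the glia-rich SNI 3d replicate 3 over all its wells. All 3 filled SNI 3d points lie above all 6 naive points in every panel, while the open circle lies among or below the naive points for Sox11, Smad1, Flrt3 and Itga7.

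Effector genes of the axotomy response, which include secreted peptides, membrane proteins and markers of injured neurons, were the list with the highest median. Of 33 genes tested in neuronal wells 16 rose and 0 fell (48.5% called), with a median log2 fold change of 2.92 against 0.39 for all genes. A gene was tested when enough reads fell on it in some mouse, so genes without a read in naive mice were included. The 16 hold Vip and Il24, which had no read in any naive mouse. Il24 had reads in SNI 3d replicate 1 only, so its call does not describe the group. The mice did not overlap for 11 of the 16 (664 of all 1712 calls), and 11 passed with wells as libraries (510 of all 1712 calls). Over all wells 3 rose (Sprr1a, Flrt3 and Gadd45a). The neuronal count was 0 without SNI 3d replicate 1, 0 without RUVr factors, and 23 without the 2 wells that stood against their labels.

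Sprr1a (ENSMUSG00000050359.7, chromosome 3, 92483952 to 92485895), a small proline-rich protein found in injured but hardly in intact neurons, was at 695, 199 and 301 CPM in neuronal wells after SNI. Naive replicates 5 and 6 had no read of it, replicates 1 to 3 had between 0.541 and 1.00 CPM, and replicate 4 had 13.7 CPM. A count of 0 allows up to 3 reads, which is at most 0.194 CPM in these naive mice. Every SNI 3d mouse lay above the highest naive mouse, and the log2 fold change was 7.82 ± 1.64 (SE, edgeR adjusted p = 0.023) in neuronal wells and 8.29 ± 1.79 (SE, edgeR adjusted p = 0.077) over all wells. SNI 3d replicate 3 had 353 CPM over its glia-rich wells.

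The promoters of Sprr1a and of Plaur, the urokinase receptor and another effector called in neuronal wells, are shown because they are the 2 of the 10 called effectors with a RefSeq promoter that hold an AP-1 motif, the DNA sequence bound by Jun and Fos dimers. Each window is the 250 bases before the RefSeq gene start on GRCm38.p6, written 5′ to 3′ on the strand of the gene, with the motif TGANTCA in capitals. Both strands were searched, and TGANTCA reads as itself on the opposite strand.
Sprr1a, minus strand, chr3:92485882-92486131: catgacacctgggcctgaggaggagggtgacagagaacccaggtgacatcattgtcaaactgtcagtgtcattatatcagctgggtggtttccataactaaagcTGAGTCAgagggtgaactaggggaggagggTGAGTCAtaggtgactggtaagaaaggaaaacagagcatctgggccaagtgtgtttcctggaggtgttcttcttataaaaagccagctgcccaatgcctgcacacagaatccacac
Plaur, plus strand, chr7:24462233-24462482: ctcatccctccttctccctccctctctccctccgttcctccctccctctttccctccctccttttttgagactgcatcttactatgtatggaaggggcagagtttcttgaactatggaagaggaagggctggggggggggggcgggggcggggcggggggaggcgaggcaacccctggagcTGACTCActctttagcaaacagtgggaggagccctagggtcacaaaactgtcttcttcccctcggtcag
Sprr1a holds TGAGTCA at 146 and at 116 bases before the start, and Plaur holds TGACTCA at 69 bases before it. Of all 32851 RefSeq promoter windows 6.75% hold the motif, and of 15 effectors that were not called 3 do. None of the 8 called transcription factors has it, and none of these 8 or of the 10 called effectors with a window holds the cAMP response motif TGACGTCA, which 1.55% of all windows hold. A match describes letters in this window only. Plaur itself was at 70.8, 33.02 and 41.2 CPM after SNI, against 0.0504 to 1.33 CPM in 5 naive mice and 22.6 CPM in naive replicate 4, with a log2 fold change of 4.08 (edgeR adjusted p = 0.096).

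Flrt3, a leucine-rich transmembrane protein of axon guidance, was at 1284, 549.8 and 801 CPM. Among the 6 naive mice the lowest was at 0.403 CPM, the median at 39 CPM and the highest at 217 CPM. All injured mice exceeded all naive mice in neuronal wells at a log2 fold change of 4.22 ± 0.83 (SE, edgeR adjusted p = 0.017). Its level in the glia-rich SNI 3d replicate 3 was 96.7 CPM. Gadd45a, a growth arrest and DNA damage gene, was at 512, 248 and 117 CPM, and the naive mice had between 18.2 and 92.2 CPM. These did not overlap, and the log2 fold change was 2.92 (edgeR adjusted p = 0.048).

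Cacna2d1, the α2δ-1 subunit of voltage-gated calcium channels, was at 495, 332 and 403 CPM after SNI and at 0.693 to 701 CPM (median 94.8) in naive mice. The groups overlapped because naive replicate 5 had the highest value of all, at 701 CPM, and the fitted log2 fold change was 2.70 ± 0.57 (SE, edgeR adjusted p = 0.024). Lgals1, a galectin, was at 1151, 950.5 and 1026 CPM, above naive replicates 1 to 5 (183 to 399 CPM) and below replicate 6 (2934 CPM), with a log2 fold change of 1.42 ± 0.27 (SE, edgeR adjusted p = 0.016). Among the 16 calls, Vip and Il24 had no read in any naive mouse, but Vip reached 7.36 CPM in SNI 3d replicate 4 and 0.627 CPM in replicate 1, and Il24 had reads in replicate 1 only (2.36 CPM).

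Several genes best known from axotomy did not pass. The neuropeptide Gal was at 1.2, 194 and 124 CPM after SNI and at 0.0866 to 166 CPM (median 4.84) in naive mice, which overlapped widely (edgeR adjusted p = 0.57). Npy, another neuropeptide, was at 953, 8.05 and 116 CPM, while 5 naive mice had at most 0.95 CPM and naive replicate 4 had 149 CPM (edgeR adjusted p = 0.15). Well c of naive replicate 4 had 593 CPM of Gal and 536 CPM of Npy, while its wells a and b had at most 4.39 and 0.532 CPM. Csf1, the macrophage colony-stimulating factor, was above every naive mouse at 84, 33.4 and 65.7 CPM against 0 to 23.8 CPM (median 4.26), but stayed over the threshold (edgeR adjusted p = 0.11). Gap43, a growth cone protein, ranged from 3.64 to 1682 CPM among naive mice and was at 2515, 1037 and 1054 CPM after SNI (edgeR adjusted p = 0.38). Ecel1, an injury-induced endopeptidase, had at most 0.828 CPM in any mouse of these wells (edgeR adjusted p = 0.13).

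Genes of the growth cone and cytoskeleton rose in 7 of 30 cases in neuronal wells and fell in 0 (23.3% called against 7.57% of all genes), with a median log2 fold change of 0.40 against 0.39 for all genes. Of the 7, 3 were β-tubulins. Tubb6 (ENSMUSG00000001473.6), a β-tubulin of low abundance in intact neurons, was at 1816, 603 and 859 CPM after SNI. The 6 naive mice had between 0.756 and 199 CPM, with a median of 51.3 CPM. Its mice did not overlap, SNI 3d replicate 3 had 823 CPM, and the log2 fold change was 5.02 ± 0.78 (SE, edgeR adjusted p = 0.0071) in neuronal wells and 4.60 ± 0.70 (SE, edgeR adjusted p = 0.027) over all wells. Tubb2a, another β-tubulin, rose from 385 to 934 CPM (median 471) in naive mice to 1837, 853 and 1297 CPM, and Tubb3, the neuronal β-tubulin, from 6026 to 11100 CPM (median 9010) to 18210, 11440 and 15430 CPM. Their log2 fold changes were 1.45 ± 0.34 (SE, edgeR adjusted p = 0.037) and 0.78 ± 0.20 (SE, edgeR adjusted p = 0.045). Stmn2, which regulates microtubules in growth cones, was at 9633, 5384 and 7358 CPM against 2311 to 4591 CPM (median 3719) (log2 fold change 1.16 ± 0.32, SE, edgeR adjusted p = 0.058), and Marcks, an actin-binding substrate of protein kinase C, at 96.5, 77.5 and 97.9 CPM against 1.73 to 62.8 CPM (median 12.9) (log2 fold change 2.42 ± 0.62, SE, edgeR adjusted p = 0.048).

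Rhoq (ENSMUSG00000024143.14, chromosome 17, 86963082 to 87000069), also named TC10 and known for membrane traffic at growing tips, had the smallest adjusted p in both fits. It was at 434, 185 and 257 CPM in neuronal wells after SNI. In naive mice its level ran from 19.8 to 63.9 CPM, with a median of 42.6 CPM. SNI 3d replicate 3 had 292 CPM over its glia-rich wells, and the glia-rich wells put naive replicate 5 at 227 CPM when they were counted. The log2 fold change was 2.86 ± 0.30 (SE, edgeR adjusted p = 0.00069) in neuronal wells and 2.34 ± 0.33 (SE, edgeR adjusted p = 0.019) over all wells, and the neuronal call held with each mouse left out and without RUVr factors.

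Rhoc, a relative of RhoA, was at 373, 134 and 222 CPM after SNI, against 17.7 to 85.2 CPM (median 23.5) in naive mice (log2 fold change 2.81 ± 0.53, SE, edgeR adjusted p = 0.015). Cdc42ep2, an effector of Cdc42, was at 73.4, 54.0, 159.9 and 52.5 CPM in the 4 SNI 3d mice over all wells, above all naive mice there at 0.327 to 35.25 CPM (log2 fold change 2.24 ± 0.46, SE, edgeR adjusted p = 0.077). Without naive replicate 5 its log2 fold change was 1.20, and the call held. Cttn, the actin-branching protein cortactin, was at 382, 177 and 197 CPM against 55 to 113 CPM (median 84.8) (log2 fold change 1.56 ± 0.29, SE, edgeR adjusted p = 0.014). Tnik, a kinase that links Rap GTPases to the cytoskeleton, was at 115, 73.7 and 95.4 CPM against 0.302 to 50.7 CPM (median 28.7) (log2 fold change 2.31 ± 0.38, SE, edgeR adjusted p = 0.0093). In neuronal wells none of Rhoc, Cttn and Tnik overlapped between the groups, where 3.75% of all genes tested lay above every naive mouse.

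Several other genes did not overlap in neuronal wells. The rule that named genes from each fit took only calls without overlap, so their non-overlap, here and below, is no further support. Itga7, a laminin-binding integrin subunit, was at 506, 273 and 329 CPM after SNI against 29.9 to 102 CPM (median 66.3) (log2 fold change 2.54 ± 0.38, SE, edgeR adjusted p = 0.0068), while replicate 3 had 99.1 CPM. Unc5c, a netrin receptor, was at 61.1, 56.9 and 58.4 CPM against 0.0866 to 21.8 CPM (median 15.6), and Thsd7a, a thrombospondin-domain protein, at 169, 108 and 146 CPM against 0.433 to 72.2 CPM (median 35.6). Their log2 fold changes were 3.12 ± 0.35 (SE, edgeR adjusted p = 0.00085) and 3.09 ± 0.39 (SE, edgeR adjusted p = 0.0026), and in both genes naive replicates 5 and 6 lay under 1 CPM. Over naive replicates 1 to 4 and SNI 3d replicates 1 and 2 alone, the difference was 1.64 for Unc5c and 1.48 for Thsd7a on the log2(CPM + 1) scale. Kif21a, a kinesin of axonal transport, rose from 209.9 to 539 CPM (median 457) to 1007, 806 and 812 CPM, and Ipo5, an importin, from 49.7 to 131 CPM (median 52.8) to 200.1, 139.7 and 169 CPM. Their log2 fold changes were 1.04 ± 0.14 (SE, edgeR adjusted p = 0.004) and 1.56 ± 0.18 (SE, edgeR adjusted p = 0.00085).

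Uhmk1, a kinase of RNA-binding proteins, was at 509.5, 349 and 371 CPM after SNI against 111 to 209.9 CPM (median 177) (log2 fold change 1.24 ± 0.17, SE, edgeR adjusted p = 0.0035), and Ppp2r5b, a regulatory subunit of protein phosphatase 2A, at 126, 87.2 and 56.5 CPM against 0.454 to 43.4 CPM (median 31.6) (log2 fold change 2.28 ± 0.32, SE, edgeR adjusted p = 0.004). Spns3, a transporter-like membrane protein, had 30.5, 10.3 and 6.54 CPM in SNI 3d mice and at most 0.0501 CPM in any naive mouse, which is within the 3 reads that a count of 0 allows (edgeR adjusted p = 0.004). The noncoding gene Gm19705 was at 25.5, 31.6 and 32.6 CPM after SNI and at no more than 0.35 CPM in naive mice (edgeR adjusted p = 0.0044). Mtus2, a microtubule-associated protein, was at 111, 71.7 and 100.1 CPM against 0.101 to 31.9 CPM (median 14) (log2 fold change 3.21 ± 0.58, SE, edgeR adjusted p = 0.013). Gnpda2, an enzyme of glucosamine metabolism, was at 747, 329 and 565 CPM in neuronal wells, where naive replicate 6 reached 390 CPM and overlapped. Over all wells its 4 SNI 3d mice lay between 305 and 762 CPM, above all naive mice at 106 to 193 CPM (log2 fold change 1.99 ± 0.37, SE, edgeR adjusted p = 0.053). Maged1 and Gabarapl1, an adaptor of neurotrophin signalling and an autophagy protein, also had all 4 injured mice above all naive mice over all wells, with log2 fold changes of 1.06 and 1.13 (edgeR adjusted p = 0.077 and 0.053).

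Of the 76 named genes that were called in neuronal wells, 22 were called with every mouse left out in turn, 47 with wells as libraries, 68 with the replicate block, 25 without SNI 3d replicate 1 and 7 without RUVr factors. These 7 were Cttn, Gm19705, Itga7, Rhoc, Rhoq, Spns3 and Uhmk1, listed after their values were seen. Many named genes were picked for a small p in this same fit, so these counts do not describe the calls at large. Of all 1712 calls, 510 were called with wells as libraries and 835 with the replicate block. Without SNI 3d replicate 1 it was 89 of the 1712, and without RUVr factors 14.

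Fewer genes were called lower than higher in edgeR over both kinds of wells, but over all wells the balance turned to 229 higher and 648 lower without naive replicate 5, to 362 and 534 without naive replicate 6, and to 1008 and 1241 in DESeq2. With only the naive mice of day 3 it was 19 higher and 174 lower, and only 28 of the 166 main calls were called again. Resp18 (ENSMUSG00000033061.15, chromosome 1, 75272199 to 75278415), a secretory granule protein of neuroendocrine cells, was at 51.3, 95.6 and 75.9 CPM in neuronal wells after SNI. Among the 6 naive mice the lowest was at 211 CPM, the median at 358 CPM and the highest at 539 CPM. Every injured mouse lay below every naive mouse, in neuronal wells and over all wells, where SNI 3d replicate 3 had 5.63 CPM. The log2 fold change was -2.16 ± 0.44 (SE, edgeR adjusted p = 0.02) in neuronal wells and -2.72 ± 0.49 (SE, edgeR adjusted p = 0.053) over all wells. Spock3, a secreted proteoglycan and the other gene with no overlap among the 43 lower calls over all wells, was at 15.2, 35.6 and 25.8 CPM in the neuronal wells, where naive replicate 6 had 6.15 CPM, and did not pass there (edgeR adjusted p = 0.19).

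In neuronal wells Acaa2, a thiolase of mitochondrial fatty acid oxidation, fell to 39.1, 51.8 and 50.1 CPM from 84.7 to 234 CPM (median 118) (log2 fold change -1.33 ± 0.22, SE, edgeR adjusted p = 0.0093). The glia-rich SNI 3d replicate 3 had 748 CPM of it, and it did not pass over all wells (edgeR adjusted p = 0.31). Brcc3, a deubiquitinase of the BRCA1 complex, fell to 81.3, 104 and 72.7 CPM from 149 to 470.4 CPM (median 190.0), and Haus1, a subunit of the augmin complex of microtubules, to 18.3, 25.1 and 16.6 CPM from 47.2 to 58.5 CPM (median 51). Their log2 fold changes were -1.22 ± 0.17 (SE, edgeR adjusted p = 0.0044) and -1.37 ± 0.22 (SE, edgeR adjusted p = 0.0093). Tsc22d3, the glucocorticoid-induced leucine zipper, was at 272, 376 and 489.7 CPM against 657 to 955 CPM (median 805) (log2 fold change -1.05 ± 0.20, SE, edgeR adjusted p = 0.015), with 1532 CPM in SNI 3d replicate 3. Trappc2, a subunit of the vesicle tethering complex TRAPP, was at 71.1, 101 and 128 CPM against 162 to 377 CPM (median 185) (log2 fold change -1.06 ± 0.19, SE, edgeR adjusted p = 0.012). The calls of Acaa2, Brcc3, Haus1, Trappc2, Tmem205 and Mrpl46 held with each mouse left out in turn. Lamtor3, Pttg1 and Ramac had log2 fold changes of -0.97, -1.44 and -0.96 (edgeR adjusted p = 0.011, 0.011 and 0.014). Their mice did not overlap, which the rule for naming genes from this fit required.

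**Figure D2:**
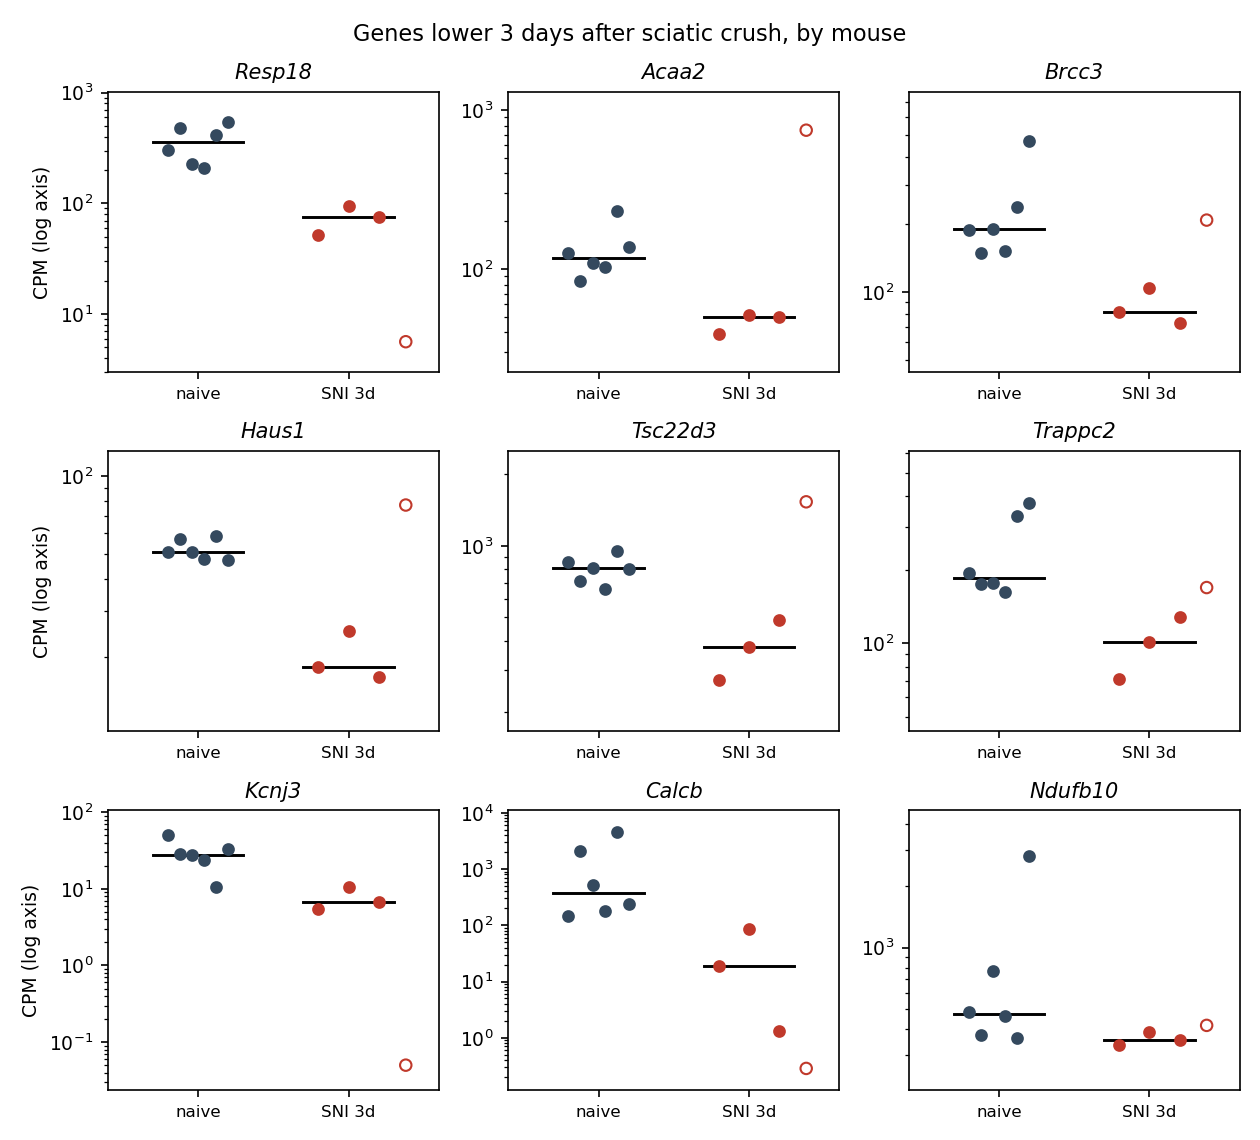
Levels of 9 genes in neuronal wells (CPM, log axis, values under 0.05 drawn at 0.05), 1 filled point per mouse with the median as a bar, and an open circle for the glia-rich SNI 3d replicate 3 over all its wells. The filled SNI 3d points lie below all naive points for Resp18, Acaa2, Brcc3, Haus1, Tsc22d3, Trappc2 and Calcb, overlap for Kcnj3 and Ndufb10, and the open circle lies above the highest naive point for Acaa2, Haus1 and Tsc22d3.

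Nuclear genes of the respiratory chain were lower in 9 of 41 cases and higher in 0 (22% called, 1.19% of all genes being called lower), and their median log2 fold change was -0.33 against 0.39 for all genes. The changes were small. Ndufb10, a subunit of complex I, was at 336, 386 and 356 CPM after SNI against 362 to 2817 CPM (median 474), so that the groups overlapped, with a log2 fold change of -0.78 ± 0.17 (SE, edgeR adjusted p = 0.024). Ndufb5 and Ndufa9, also of complex I, and Uqcrb of complex III had log2 fold changes of -0.77, -0.58 and -0.76 (edgeR adjusted p = 0.030, 0.051 and 0.054). In all 4 genes naive replicate 6 had the highest level of any mouse, and without it 0 of the 41 genes were called, as was also the case without SNI 3d replicate 1 and with wells as libraries. With the replicate block 11 were lower, and over all wells 0 of 41 were called.

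Genes that mark large-fibre neurons went both ways, with 5 of 26 higher and 2 lower in neuronal wells (26.9% called against 7.57% of all genes), and their median log2 fold change was 0.42 against 0.39 for all genes. Without naive replicate 5 the counts turned to 2 higher and 3 lower. Ntrk3, the receptor for neurotrophin-3 of proprioceptors, was at 279, 275 and 379.8 CPM after SNI. Naive replicates 1 to 4 and 6 had between 170 and 250 CPM and replicate 5 had 0.504 CPM, and the log2 fold change was 1.55 ± 0.40 (SE, edgeR adjusted p = 0.047). Within the earlier set the difference was 0.51 and within the later set 4.29 on the log2(CPM + 1) scale. Pvalb, a calcium-buffering protein of proprioceptors, was at 335, 627 and 688 CPM against 1.01 to 5354 CPM (median 448) and did not pass, and neither did Nefh, the heavy neurofilament, at 907, 1925 and 883 CPM against 123 to 2396 CPM (median 1883) (edgeR adjusted p = 0.55 and 0.37). Gfra1, the GDNF co-receptor, rose from 0 to 98.8 CPM (median 34.5) to 709.7, 321 and 522 CPM without overlap (log2 fold change 4.43 ± 0.76, SE, edgeR adjusted p = 0.011). Naive replicate 5 also stood apart in these genes, with 0.756 CPM of Scn1a where the other naive mice had 254 to 496 CPM.

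Nociceptor genes, which mark small neurons that this line labels little, took between 253.5 and 476 CPM in the neuronal wells of SNI 3d mice. In the neuronal wells of naive mice they took between 225 and 42160 CPM (median 3794), highest in naive replicate 5. Over all wells their summed level was 262, 476, 2.53 and 436 CPM in SNI 3d mice, and 201, a median of 2278 and 17900 CPM in naive mice. The difference of mean log2 levels was -4.38 (exact permutation test, two-sided, 210 permutations, p = 0.0381, and 0.381 after adjustment over the 10 lists tested), and -3.24 without the glia-rich wells (p = 0.0952, 84 permutations, exact permutation test). Of 15 genes tested in neuronal wells 2 rose and 1 fell, with a median log2 fold change of -2.35 against 0.39 for all genes. The one that fell was Calcb, a calcitonin gene-related peptide. It was at 19, 84.3 and 1.34 CPM against 144 to 4600 CPM (median 382) (log2 fold change -4.25 ± 1.20, SE, edgeR adjusted p = 0.064), below every naive mouse. Plxnc1, a semaphorin receptor on the same list, rose from 9.58 to 58 CPM (median 21.7) to 87.2, 59.3 and 68.8 CPM (log2 fold change 1.73 ± 0.39, SE, edgeR adjusted p = 0.032). Gfra3, the artemin co-receptor, was at 25.1, 10.4 and 13.7 CPM after SNI and at or under 0.0442 CPM in 5 naive mice, but at 798 CPM in naive replicate 5. Its fitted log2 fold change was 8.09 with the RUVr factors (edgeR adjusted p = 0.028) and -3.02 without them (edgeR adjusted p = 0.73), so its call as higher rests on the factors.

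Of 22 sodium and calcium channel genes 3 rose and 0 fell in neuronal wells (13.6% called against 7.57% of all genes), among them Scn2a and Scn3a, α subunits of voltage-gated sodium channels. Scn3a was at 8.3, 13 and 10.8 CPM against 0 to 5.29 CPM (median 3.28), and Scn2a at 35.6, 33.5 and 39.97 CPM against 0.101 to 22.5 CPM (median 15.8), with log2 fold changes of 3.12 ± 0.78 (SE, edgeR adjusted p = 0.045) and 2.03 ± 0.46 (SE, edgeR adjusted p = 0.031). Scn1a did not pass, at 192, 266 and 343 CPM (edgeR adjusted p = 0.36). Of 34 potassium channel genes 3 rose and 2 fell (14.7% called), with a median log2 fold change of -0.34 against 0.39 for all genes. Without naive replicate 5 the counts were 0 higher and 2 lower, and without SNI 3d replicate 1 they were 0 and 0. Kcnj3, an inward rectifier gated by G proteins, was at 5.44, 10.7 and 6.79 CPM against 10.4 to 50.4 CPM (median 27.8), and the fast-inactivating Kcna4 at 0.0251, 1.01 and 0.0145 CPM against 0.173 to 41.5 CPM (median 13.8), with log2 fold changes of -1.93 ± 0.47 (SE, edgeR adjusted p = 0.042) and -4.70 ± 1.33 (SE, edgeR adjusted p = 0.066). Kcnma1, a large-conductance channel, rose by 1.95 on the log2 scale, with naive replicate 5 at 0.151 CPM. The axonal Kcna1 was at 58.9, 116 and 67.2 CPM against 6.1 to 206 CPM (median 109.9) and did not pass (edgeR adjusted p = 0.48). Over all wells 0 sodium or calcium channels and 1 potassium channel, Kcna4, passed.

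Receptors for trophic factors and cytokines rose in 8 of 24 cases and fell in 1 (37.5% called against 7.57% of all genes), with a median of 0.12 against 0.39 for all genes. Besides Gfra1, and Gfra3 whose direction turned without RUVr factors, these included Acvr1, a BMP receptor, which was at 157, 55.8 and 44.6 CPM against 1.04 to 70.0 CPM (median 8.62) (log2 fold change 2.96 ± 0.58, SE, edgeR adjusted p = 0.018). Lifr, the receptor for leukaemia inhibitory factor, was at 1315, 1015 and 1347 CPM against 35.7 to 1462 CPM (median 825) (log2 fold change 1.08 ± 0.26, SE, edgeR adjusted p = 0.041). In Acvr1 and Lifr naive replicate 5 lay among or above the SNI 3d mice. With wells as libraries 2 of the receptors were called and over all wells 0.

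Genes of synaptic vesicle release rose in 4 of 24 cases and fell in 0 (16.7% called against 7.57% of all genes), with a median log2 fold change of 0.33 against 0.39. Without naive replicate 5 the counts were 2 higher and 2 lower. Among the 4 that rose with all mice were Cplx1, Syp and Slc17a7 with log2 fold changes of 0.60, 1.14 and 1.34. They encode complexin, synaptophysin and a vesicular glutamate transporter. Their SNI 3d mice overlapped the naive mice in each case, and none of these 3 passed with wells as libraries. Cplx1 and Slc17a7 were at 64.7 and 0.0504 CPM in naive replicate 5, where the other naive mice had 721 to 1345 and 18.8 to 127 CPM.

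Lipid synthesis supplies membrane to growing axons. In cholesterol synthesis 3 of 22 genes rose and 0 fell (13.6% called against 7.57% of all genes), with a median of 0.05 against 0.39 for all genes. Hsd17b7 was at 683, 308 and 787 CPM against 81.9 to 201 CPM (median 157), and Lss, lanosterol synthase, at 29.4, 24.6 and 70.6 CPM against 3.85 to 18.5 CPM (median 14.6), both without overlap. Their log2 fold changes were 2.05 ± 0.38 (SE, edgeR adjusted p = 0.014) and 1.78 ± 0.53 (SE, edgeR adjusted p = 0.075), and Mvk, mevalonate kinase, had 1.401 (edgeR adjusted p = 0.036). Hmgcs1, an early enzyme of the pathway, was at 587, 568 and 889.5 CPM against 494 to 2141 CPM (median 619) (edgeR adjusted p = 0.89). In fatty acid synthesis 3 of 23 genes were called (13%), of which Acly and Mcat rose, and Elovl6, a fatty acid elongase, fell to 12.3, 8.74 and 10.5 CPM from 17.7 to 144 CPM (median 65.8), below every naive mouse (log2 fold change -2.35 ± 0.52, SE, edgeR adjusted p = 0.029). Fasn, fatty acid synthase, was at 47.1, 63.8 and 79.5 CPM against 32.7 to 96.8 CPM (median 42.6) and did not pass (edgeR adjusted p = 0.74).

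Of 24 stress and unfolded protein response genes 1 passed, the chaperone Hsp90aa1, whose log2 fold change of 0.37 was no larger than the median of all genes. Of 23 genes of the DLK and JNK pathway, which carries the injury signal from the axon to the nucleus, 0 passed in either fit, and their median in neuronal wells was -0.08. Map3k12, which encodes DLK, had a log2 fold change of -0.31 (edgeR adjusted p = 0.85). In edgeR's test 5216 of all 22620 genes had an unadjusted p under 0.05.

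**Figure D3:**
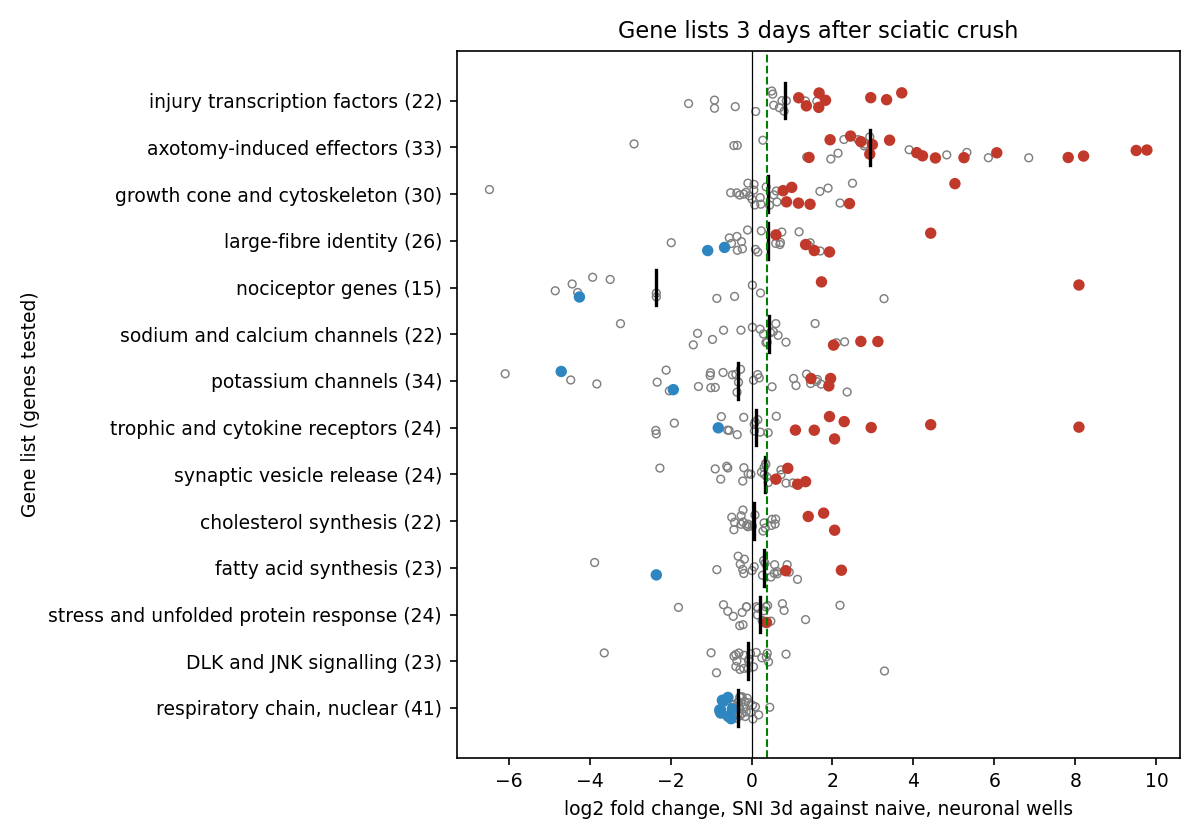
Log2 fold change of SNI 3d against naive in neuronal wells (x axis) for each gene of 14 lists (y axis, with the number of genes tested), filled red for genes called higher, filled blue for genes called lower and open for the rest. Black bars mark list medians and the dashed green line the median of all genes at 0.39, and the effector list lies farthest to the right with a median of 2.92.

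Markers of other cell types were also compared. Over all wells the summed Schwann cell markers ranged from 4655 to 85500 CPM in SNI 3d mice and from 4688 to 79170 CPM in naive mice, highest in SNI 3d replicate 3 and naive replicate 6. Summed macrophage markers ranged from 3.48 to 274 CPM and from 0.618 to 2416 CPM, with naive replicates 5 and 6 above every other mouse. None of the 10 lists differed between groups after adjustment (exact permutation tests over mice). In neuronal wells 0 of 11 satellite glia, 12 Schwann cell, 10 fibroblast, 9 endothelial and mural and 9 blood markers passed. Of 10 macrophage markers 3 were called higher (30% against 7.57% of all genes), with a list median log2 fold change of 6.17 against 0.39. Summed over the list, neuronal wells had 3.825 to 29.4 CPM after SNI and 0.394 to 8.87 CPM in naive mice. The 3 called were Ctss, Tyrobp and Fcer1g. They had reads in SNI 3d replicate 4 only, at 10.4, 1.32 and 2.87 CPM, and in naive replicates 5 and 6. Among the genes that defined glia-rich wells S100b was lower, at 1366, 1641 and 1536 CPM against 348 to 5204 CPM (median 2372) (log2 fold change -0.50 ± 0.14, SE, edgeR adjusted p = 0.064), and among those that defined neuronal wells Stmn2 and Tubb3 rose. The part of these markers in the results above was not tested.

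The same fit compared SNI 3d with SNI 1d and with SCI 3d over all wells. Against SNI 1d, 1 of 23507 genes passed (0.00425%), Chrnb4, a nicotinic receptor subunit. It had no read in any SNI 3d mouse, reads in 2 of 4 SNI 1d mice (at most 5.20 CPM) and in 1 naive mouse (46.7 CPM in replicate 5), and 2339 genes had an unadjusted p under 0.05. When any 1 of the SNI 3d mice was left out, 0 genes passed in edgeR, and DESeq2 called 950 with all mice. Atf3 was between 436 and 923 CPM at 3 days and between 583 and 1305 CPM at 1 day, which overlapped (edgeR adjusted p = 0.78). Sprr1a was between 185 and 572 CPM at 3 days and between 12.96 and 178 CPM at 1 day, so that every 3-day mouse lay above every 1-day mouse, but its log2 difference of 2.54 did not pass (edgeR adjusted p = 0.64). How many of all genes were separated in this way was not counted.

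Against SCI 3d, 0 of 23507 genes passed in edgeR's test, with 1989 at an unadjusted p under 0.05 and 991 calls in DESeq2. The smallest p-values among genes higher after SNI belonged to Tnik, Rhoq and Sbno2, with log2 differences of 2.20, 1.87 and 3.996 (edgeR adjusted p = 0.57, 0.57 and 0.58). Tnik was between 68.5 and 134 CPM in SNI 3d mice and between 4.70 and 43.2 CPM in SCI 3d mice, and Rhoq between 172 and 359 CPM against 55.2 to 106 CPM. Neither gene overlapped between these groups, but both were picked by their p in this same contrast, so this is no separate support. The share of all genes without overlap was not counted for this contrast. Among genes lower after SNI the smallest p-values belonged to Plin4, Gm15326 and Nms, which had at most 1 read in any SNI 3d mouse and reached 6.88, 0.20 and 1.69 CPM in SCI 3d mice. Both contrasts share the SNI 3d mice with the comparison against naive mice.

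**Figure D4:**
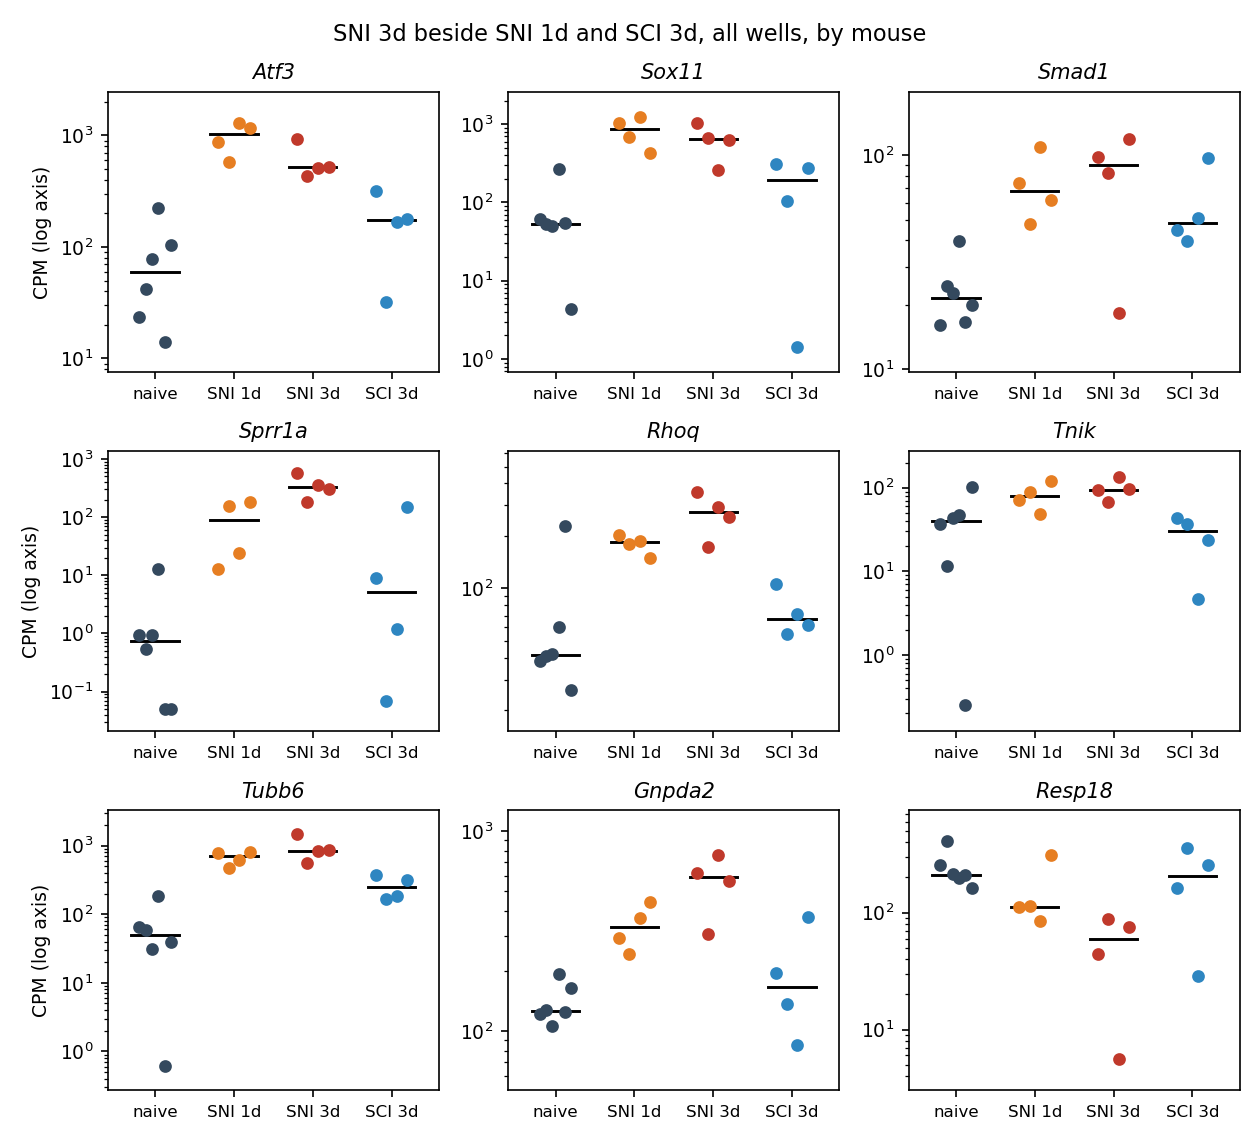
Levels of 9 genes over all wells (CPM, log axis, values under 0.05 drawn at 0.05) in naive, SNI 1d, SNI 3d and SCI 3d mice, 1 point per mouse with the median as a bar. SNI 3d mice lie above all SCI 3d mice for Atf3, Sprr1a, Rhoq, Tnik and Tubb6, and SNI 1d and SNI 3d mice overlap for Atf3, Sox11, Smad1, Rhoq, Tnik, Tubb6, Gnpda2 and Resp18.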

How the data were processed

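The members, gene lists and tests were chosen with earlier results of these data known. Per the labels and the methods of the study, the authors sorted about 100 YFP-positive cells per well, made libraries with a SMARTer kit, trimmed reads with cutadapt, checked them with PRINSEQ, aligned them to mm10 with STAR 2.5.3a and counted reads per gene with HTSeq 0.6.1, and the deposited counts are whole reads without normalization for 53379 genes, and 5 further lines without a gene name did not enter the analysis. The authors' tables of DESeq2 comparisons (fold changes and p-values), with 123 columns of values per sample, were not used. The study removed outlier mice that the sources used here do not name, so all were kept.

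Counts were summed per mouse, over all wells and over neuronal wells. The filter kept genes that reached 20 reads in some mouse. The 22 sorted mice (20 with neuronal wells) were fitted together in edgeR 4.0.16 (R 4.3.3, limma 3.58.1, DESeq2 1.42.0) by the quasi-likelihood F-test with TMM scaling and 2 RUVr factors from centred residuals, and genes with a Benjamini-Hochberg adjusted p under 0.1 were called. CPM of mice are scaled by TMM, and those of wells and summed marker lists by library size only. The biological coefficient of variation was 1.20 over all wells and 1.08 over neuronal wells. Fold changes carry a prior count of 0.125. For marker lists, log2(CPM + 1) of the summed level was compared by an exact permutation test. The scripts were tested on simulated data. Floors of 3 reads cover counting error only. Each ± SE was derived from the quasi-likelihood F-test and includes the spread between mice that remains after the RUVr factors. Replicate numbers for blocking were taken from the labels within each set. Over all wells the deviations of every pair of mice with the same set and number correlated at 0.127 to 0.245. The other pairs of an SNI 3d and a naive mouse correlated at -0.342 to 0.341, so a pairing by number is not shown. The fit with the same-number pairs as a block is given beside the count over all wells.

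Genes were named by a rule: 20 fixed genes, the 10 smallest adjusted p per direction in each fit among calls with no overlap between mice, up to 4 called genes with the smallest adjusted p per list, and the genes with the smallest p against SNI 1d and SCI 3d (5 per direction, or 3 where none passed), 93 genes in all. Of the identifiers, 53274 matched GENCODE vM21. Promoters are from RefSeq (GRCm38.p6). Python 3.11.15 with pandas 2.3.3, numpy 2.4.6, scipy 1.17.1 and matplotlib 3.10.9 made the summaries. The alternatives tried are given with the limits. A few genes of the lists are counted but not reported here by name.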

Additional observations from a re-analysis of the deposited data

Results flagged for a closer look

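Of 48 groups of 4 to 6 mice checked, 8 held a mouse that stood apart from the others of its group by Dixon's criterion, which chance gives in about 1 group of 20, and the genes checked share these mice. Over all wells, naive replicate 5 stood apart in 4 genes, at 0.3272 CPM of Cdc42ep2, 36.19 CPM of Cplx1, 5.386 CPM of Gm19705 and 0.6041 CPM of Tubb6. SNI 3d replicate 3, whose wells were all glia-rich, stood apart at 662.7 CPM of Cplx1 and 9.987 CPM of Gm19705. SNI 3d replicate 2 stood apart at 0.9375 CPM of Kcna4, and naive replicate 4 at 12.92 CPM of Sprr1a. Chrnb4 differed between SNI 3d and SNI 1d in the test of that difference, with 5.202 CPM in the highest SNI 1d mouse and no read in any SNI 3d mouse.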

How the results depend on the processing

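Against naive mice, the 166 calls over all wells became 2249 with DESeq2, 57 with no count filter, 7 at an adjusted p under 0.05, 0 with no or 1 RUVr factor, with the set in place of RUVr or with only these 2 groups fitted (2384 to 2970 at an unadjusted p under 0.05), 2 with uncentred factors, 5 with the replicate block and 84 with wells thinned to equal depth. The 1712 calls over neuronal wells became 2723, 917, 587, 14 with no and 168 with 1 factor, 57 with the set, 884 with uncentred factors, 1036 with the replicate block and 364 with voom. Over both kinds of wells the pairs in this block shared only their set and label number, so it is not a pairing by design. Leaving out 1 SNI 3d or naive mouse at a time gave 9 to 896 calls over all wells (877 and 896 without naive replicates 5 and 6, 598 without SNI 3d replicate 3, 28, 21 and 56 without naive replicates 1, 2 and 3, 24 without SNI 3d replicate 1, 9 without SNI 3d replicate 4) and 89 to 2006 over neuronal wells (89, 1112 and 517 without SNI 3d replicates 1, 2 and 4). Leaving out a mouse of another group moved the count over all wells to 87, 15 and 19 (SNI 1d replicates 1, 2 and 4) and to 98, 267 and 93 (SCI 3d replicates 2, 3 and 4). With only naive mice of day 3, 193 and 1861 genes passed, of which 9.84% and 72.3% were higher. Among them were only 28 of the 166 and 879 of the 1712 main calls. Alternatives added after seeing the data gave 1 and 76 calls without naive mice 5 and 6 and without RUVr, 22 and 667 with wells as libraries, and 338 and 2590 without the 2 wells that stood against their labels. Without RUVr factors 162 of the 166 and 1672 of the 1712 fold changes kept their sign.

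Against SNI 1d, 950 genes passed with DESeq2, 0 without RUVr factors, with the replicate block or without the glia-rich wells, and 0 to 2 with 1 mouse left out (2 without SNI 1d replicate 1). Against SCI 3d, 991 passed with DESeq2 and 0 to 4 with 1 mouse left out (3 without SNI 3d replicate 3, 4 without SCI 3d replicate 3). Without the glia-rich wells the log2 difference of summed levels turned to 0.12 for large-fibre genes, -0.41 for satellite glia, 1.61 for macrophages, 1.07 for fibroblasts and 0.15 for blood. The cause of these shifts was not tested. None passed after adjustment over the 10 lists, and fibroblasts had p = 0.0476 in the exact permutation test (0.298 adjusted). With 84 permutations no single list could pass that adjustment, so equal levels are not shown. With 3 neuronal SNI 3d mice and about 100 cells per well, a gene that missed the threshold is not shown to be unchanged.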
